A study of Mus musculus with 12 samples.

Results

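The genes described here are the D-type cyclins Ccnd1, Ccnd2 and Ccnd3, their kinase partners Cdk4 and Cdk6, and the cyclin-dependent kinase inhibitors Cdkn1a, Cdkn1b, Cdkn2a, Cdkn2b and Cdkn2c. They were taken as the 10 rows of the count table, of 37991 in all, whose Ensembl ID maps to these symbols, a rule that uses names and no measured value. The symbols themselves, and the gene lists used below, were chosen with earlier results of these data known. RNA was sequenced from pancreatic islets of male C57BL/6 mice that were either Tg7, a line overexpressing miR-7a2 in β-cells, or wild-type (Wt) littermates, at 2 weeks (2w) and at 12 weeks (12w) of age. The 4 groups (2w Wt, 2w Tg7, 12w Wt and 12w Tg7) had 3 libraries each, and the methods describe every library as a pool of animals, so that the p values measure the spread between pools. The paper describes the Tg7 mice as normoglycaemic at 2w and hyperglycaemic at 12w. In the Tg7 groups, age and glycaemia therefore cannot be told apart. The islets hold endocrine, vascular, stromal and immune cells besides the β-cells that carry the transgene.

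D-type cyclins bind Cdk4 or Cdk6 in the G1 phase, and these kinases phosphorylate the retinoblastoma (Rb) family of pocket proteins, which releases E2F transcription factors and allows entry into S phase. The INK4 inhibitors (here Cdkn2a, Cdkn2b and Cdkn2c) bind the Cdk4 and Cdk6 subunits, whereas the Cip/Kip inhibitors (here Cdkn1a and Cdkn1b) bind cyclin-kinase complexes. In mouse β-cells Cdk4 and Ccnd2 are known to be needed for postnatal expansion of the β-cell mass, and the Cdkn2a product p16 is known to accumulate with age.

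The transgene product and the 3′ UTR sites that match its seed are shown first, because they mark which of the 10 transcripts carry letters complementary to it. The seed of miR-7a-5p, bases 2 to 8, is in capitals in its line, and in the 2 lines below it the capitals mark the 7 bases complementary to the seed (GTCTTCC). The 2 windows are from the NCBIM37 (mm9) assembly and the miRNA is from RefSeq.
mmu-miR-7a-5p: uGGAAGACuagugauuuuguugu
Ccnd2 3′ UTR, minus strand, chr6:127077787-127077815: tggcctccgaaGTCTTCCtaggactgagt
Cdk6 3′ UTR, plus strand, chr5:3522004-3522032: tttgtaatacaGTCTTCCccctgccgcag
A match of 7 or 8 bases (the complement of the seed, or of its first 6 bases followed by A, searched on the transcript strand) was therefore present in 2 of the 10 genes, or 20%, against 26.8% of the 14406 tested genes with an annotated 3′ UTR. The 6 bases TCTTCC without such an extension were found in Ccnd3, Cdk4, Cdkn1a and Cdkn1b, and 2 further times in Ccnd2. Genes with only this shorter match were 4 of the 10, or 40%, against 20.7% of the same tested genes. A match is a description of these letters and was not tested as a site.

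Total counts were 11610697 to 17515758 per library. Reads of the insulin genes took 10.1 to 15.4% of counts in 2w Wt, 1.84 to 4.09% in 2w Tg7, 14.8 to 30% in 12w Wt and 8.08 to 8.24% in 12w Tg7 libraries, with replicate 4 of the 12w Wt group at 14.8% against 27 and 30% in the other two. All 10 β-cell marker genes and all 8 endothelial, 8 stellate, 8 macrophage and 8 alpha and delta cell markers were detected in every group. Levels below are CPM (counts as parts of a library's total) scaled with TMM factors, which adjust for differences in composition, and RPKM (CPM per kilobase of exon) where genes are compared with each other. Of the 15961 genes that passed the filter on low counts, 10.6% were called at 2w and 23.6% at 12w between Tg7 and Wt islets (edgeR, adjusted p below 0.05), with 969 higher and 726 lower at 2w and 1989 higher and 1783 lower at 12w. Scaled by library size alone, the calls were 1670 higher and 317 lower at 2w and 5198 higher and 360 lower at 12w, and over all genes the median log2 fold change moved from 0.03 to 0.19 and from -0.01 to 0.43. With upper-quartile factors the 12w calls were 2418 higher and 1317 lower.

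Ccnd2 was the only one of the 10 genes called at both ages in Tg7 islets under each of the scalings tried, and it was downregulated at each age. Ccnd1 was downregulated at 2w except under scaling by library size alone, and no kinase or inhibitor was called in Tg7 against Wt islets at either age, except Cdk4 (higher at 12w) under that scaling. At 2w these were 2 lower calls among 9 tested genes, where 4.55% of all genes were called lower. At 12w there was 1 lower call among 9, where 11.2% of all genes were called lower. Scaled by library size alone, Ccnd1 was no longer called at 2w (log2 fold change -0.37, adjusted p = 0.17), and Ccnd3 (0.51) and Cdk4 (0.43) were called higher at 12w, where all genes had shifted by a median of 0.43. Over the 9 tested members the median log2 fold change was -0.08 at 2w and -0.1 at 12w.

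**Figure D1:**
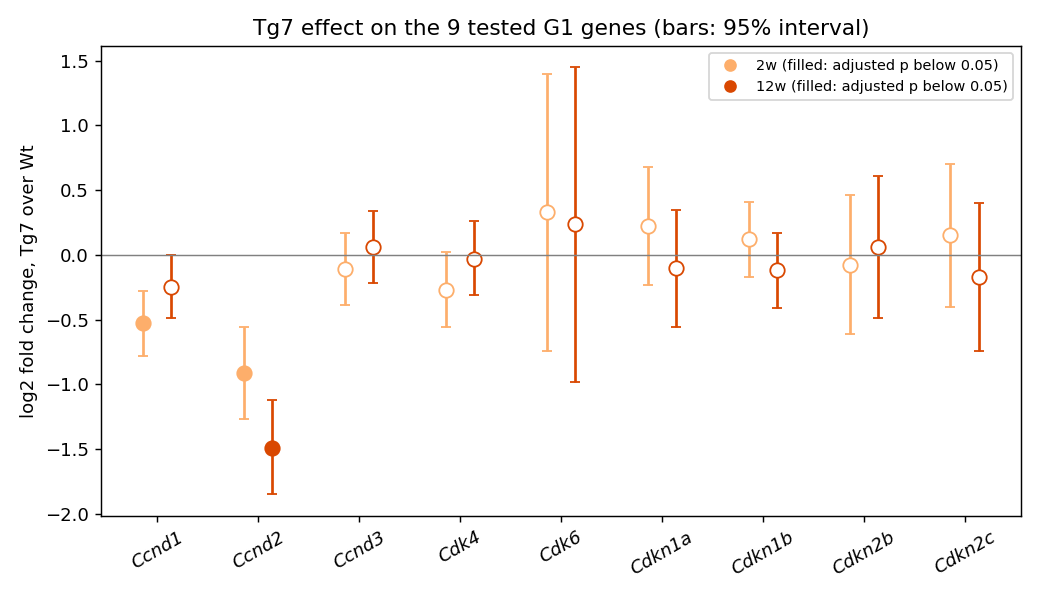
Log2 fold change of Tg7 over Wt islets for the 9 tested genes at 2w (light) and 12w (dark), with 95% intervals from the edgeR fit and filled points where the adjusted p was below 0.05. Ccnd2 lies at -0.91 and -1.49, Ccnd1 is filled at 2w, and the intervals of the other genes reach 0 or cross it.

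Per length, the D-type cyclins, the kinase Cdk4 and the Cip/Kip inhibitors made up the upper part of the order and the INK4 genes and Cdk6 the lower part. In 2w Wt islets Ccnd2 stood first at 120 ± 16.9 RPKM (SD, n = 3). It was followed by Ccnd1 (48.8 RPKM), Cdk4 (42.8 RPKM), Cdkn1a (42.7 RPKM), Cdkn1b (23.4 RPKM), Ccnd3 (20.4 RPKM), Cdkn2b (6.56 RPKM), Cdkn2c (4.01 RPKM), Cdk6 (0.409 RPKM) and Cdkn2a (0.174 RPKM). Of these neighbours, only Cdk4 and Cdkn1a, and Cdk6 and Cdkn2a, overlapped between libraries.

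In 12w Wt islets the leading gene was again Ccnd2, at 143 ± 34.2 RPKM, clear of Ccnd1 at 51 RPKM. In that group Ccnd1, Cdkn1a and Cdk4 overlapped each with the next, as did Ccnd3 with Cdkn1b, Cdkn2b with Cdkn2c, and Cdk6 with Cdkn2a. The distance of Ccnd2 from the others was smaller in Tg7 islets. At 2w Tg7 Ccnd2 (63.8 ± 6.33 RPKM) overlapped Cdkn1a (49.8 ± 6.98 RPKM), and at 12w Tg7 Ccnd2 (51.1 ± 2.77 RPKM) stood just above Ccnd1 (43 ± 3.4 RPKM), with no overlap. Ccnd1 and Cdk4 overlapped in both Tg7 groups, and Cdk4 and Cdkn1a, and Cdk6 and Cdkn2a, at 12w, with Cdkn2a above Cdk6 in the mean; at 2w Tg7 Cdk6 and Cdkn2a overlapped as well.

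**Figure D2:**
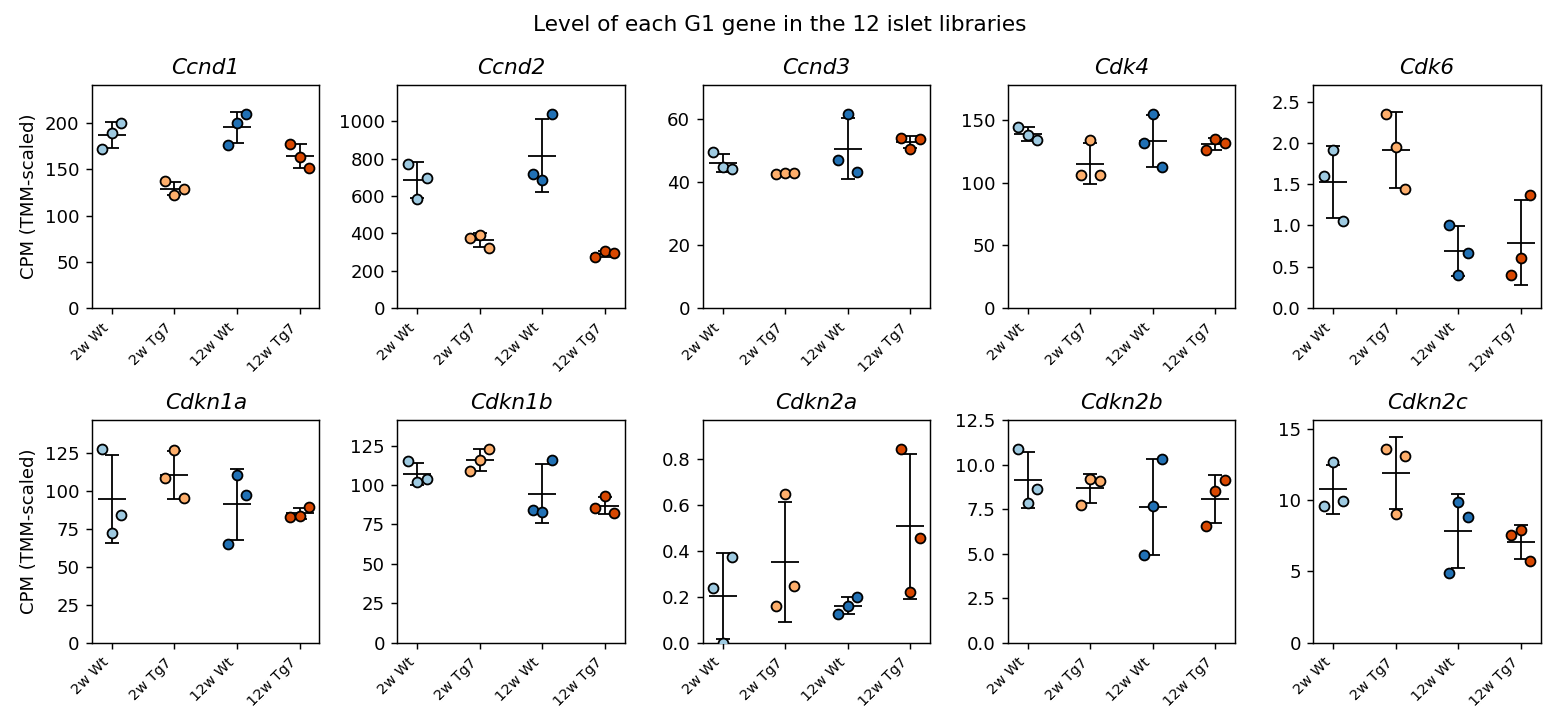
TMM-scaled CPM of each of the 10 genes in the 12 libraries, by group, with a separate linear axis from 0 for each gene, points for libraries and bars for mean ± SD (n = 3). The 3 Tg7 libraries lie below the 3 Wt libraries for Ccnd2 at each age, and for Ccnd1 at 2w.

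Ccnd2 (ENSMUSG00000000184, chr6:127075797-127101066, minus strand), the D-type cyclin with the highest level in these islets, had 774, 583 and 699 CPM in the 2w Wt libraries and 376, 392 and 323 CPM in the 2w Tg7 libraries. Every 2w Tg7 library lay below every 2w Wt library. The means were 685 ± 96.5 and 364 ± 36.1 CPM (SD, n = 3), a log2 fold change of -0.91 (SE 0.17, 95% interval -1.27 to -0.56, adjusted p = 0.00336), or 0.53 of the Wt level. Without overlap between the groups, 4 of the 9 tested members were lower at 2w (Ccnd1, Ccnd2, Ccnd3 and Cdk4), where 18.1% of all tested genes were.

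At 12w the Wt libraries had 721, 687 and 1040 CPM of Ccnd2 and the Tg7 libraries 274, 305 and 295 CPM. The groups again did not overlap, with the highest Wt value in replicate 4, and Ccnd2 was 1 of 9 tested members without overlap at that age, where 16.3% of all genes were lower in this way. The means were 817 ± 195 and 291 ± 15.8 CPM, a log2 fold change of -1.49 (SE 0.17, 95% interval -1.85 to -1.12, adjusted p = 3.45e-05), or 0.357 of the Wt level. Leaving out replicate 4, the log2 fold change was -1.27 (adjusted p = 1.54e-05).

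The larger difference at 12w was not called as a change of the Tg7 effect between ages. For Ccnd2 the difference of the 2 effects was -0.57 (SE 0.23, 95% interval -1.08 to -0.07, unadjusted p = 0.0283, adjusted p = 0.277). Among all genes 1.18% were called in this comparison. None of the 9 tested members was, by edgeR or by DESeq2, and 1 of the 9, Ccnd2, had an unadjusted p below 0.05.

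In bulk islet RNA, fewer β-cells and less Ccnd2 RNA per β-cell cannot be told apart. β-cell markers fell alongside, with 8 of 10 called lower at each age and medians of -2.06 (2w) and -2.29 (12w). Not called were Iapp at either age (-0.21 at 2w and -0.2 at 12w), Slc30a8 at 2w and Pdx1 at 12w. The 10 values were unequal, and at 2w ran from -0.21 (Iapp) to -4.78 (Mafa). At 12w they ran from -0.2 (Iapp), -0.37 (Nkx6-1) and -0.47 (Pdx1) to -5.02 (Mafa). The summed level of the 10 was 111000 to 181000 CPM (Wt) and 27700 to 52800 CPM (Tg7) at 2w. At 12w it was 199000 to 483000 CPM (Wt) and 100000 to 106000 CPM (Tg7). Most of this sum was Ins1 and Ins2 (means of 35000 and 83100 CPM in 2w Wt), the genes of the insulin percentages given above. Stellate cell and fibroblast markers moved the other way, with 6 of 8 called higher at 2w and 8 of 8 at 12w, with sums of 226 to 328 CPM (Wt) and 415 to 560 CPM (Tg7) at 2w, and of 37.1 to 44.7 CPM (Wt) and 268 to 303 CPM (Tg7) at 12w. Endothelial markers were called higher in 0 of 8 at 2w and 7 of 8 at 12w (394 to 512 CPM in Wt, 792 to 846 CPM in Tg7). Schwann cell markers were called higher in 0 of 8 at 2w and 3 of 8 at 12w (10.7 to 23.3 CPM in Wt, 24.1 to 28.9 CPM in Tg7), and ductal markers in 0 of 7 tested at 2w and 2 of 7 at 12w (419 to 599 CPM in Wt, 708 to 1000 CPM in Tg7). The ductal calls were Spp1 and Muc1, while Krt19 (-0.67) and Onecut2 (-0.28) were lower at 12w and not called. Most of the ductal sum was Krt7 and Spp1 (357 and 129 CPM in 12w Wt, 441 and 326 CPM in 12w Tg7). One acinar marker, Cpb1, was called higher at 2w, where the acinar sum was 9.61 to 11.8 CPM in Wt and 21.6 to 27.6 CPM in Tg7. Most of that sum was Cela1 (means of 9.8 CPM in Wt and 17.2 CPM in Tg7), which was not called. Of 8 macrophage markers 1 was called higher at 2w (Lyz2) and 1 lower at 12w (Csf1r). Lymphocyte markers, of which 2 passed the filter and 0 were called, summed to 2.5 to 5.52 CPM in 2w Wt and 4.94 to 33.1 CPM in 2w Tg7 libraries. Alpha and delta cell markers had 0 of 8 called at each age. The part of these markers in the Ccnd2 and Ccnd1 values was not tested.

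Ccnd1 (ENSMUSG00000070348, chr7:152115836-152125774, minus strand), the D-type cyclin that responds to growth factor signalling in most cell types, had 172, 189 and 200 CPM in 2w Wt and 137, 122 and 129 CPM in 2w Tg7 libraries. Again no Tg7 library reached a Wt library. The means were 187 ± 14.4 and 129 ± 7.2 CPM, a log2 fold change of -0.53 (SE 0.12, 95% interval -0.78 to -0.28, adjusted p = 0.01). Leaving out replicate 3 of the 2w Wt group, it was -0.48 with an adjusted p of 0.063 and was not called.

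At 12w Ccnd1 had 177, 200 and 210 CPM in Wt and 178, 163 and 152 CPM in Tg7 libraries, and 1 Tg7 library lay among the Wt values. The means were 195 ± 16.7 and 165 ± 13 CPM (log2 fold change -0.25, 95% interval -0.49 to 0, adjusted p = 0.142), and with library size alone the value was 0.19. The difference between the 2 ages was 0.28 (95% interval -0.07 to 0.63, adjusted p = 0.459). Ccnd1 shares 818 exon bases with Oraov1 on the other strand, and whether reads were counted by strand was not stated. Oraov1 had 116 to 720 counts per library and was not called (0.08 at 2w, 0.56 at 12w).

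Ccnd3 (ENSMUSG00000034165, chr17:47642000-47736632), the third D-type cyclin, had 49.4, 44.7 and 44.2 CPM in 2w Wt and 42.7, 42.9 and 42.8 CPM in 2w Tg7 libraries. The groups did not overlap, though by a small margin, and the log2 fold change of -0.11 (95% interval -0.39 to 0.17, adjusted p = 0.654) was not called. At 12w it had 46.9, 61.6 and 43.2 CPM in Wt and 54, 50.6 and 53.7 CPM in Tg7 libraries (0.06, 95% interval -0.22 to 0.34, adjusted p = 0.79). Ccnd3 shares 353 exon bases with Bysl on the other strand, and Bysl was downregulated at 2w (-0.81, adjusted p = 0.00653).

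Summed per length, the 3 D-type cyclins gave 189 ± 16.2 RPKM in Wt and 117 ± 6.2 RPKM in Tg7 islets at 2w. At 12w the sums were 217 ± 34.6 and 117 ± 1.9 RPKM. Of this sum, Ccnd2 made up 63.3 ± 3.72% (2w Wt), 54.6 ± 2.84% (2w Tg7), 65.6 ± 5.47% (12w Wt) and 43.5 ± 2.57% (12w Tg7).

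No Tg7 library reached the Ccnd2 share of any Wt library of its age, and the exact two-sided permutation test gave p = 0.1 at each age, the smallest that 3 against 3 libraries can give. Ccnd3 took 10.8 ± 0.744% of the sum in Wt and 16.3 ± 0.9% in Tg7 islets at 2w, and 10.6 ± 3.1% and 19.9 ± 0.908% at 12w, with the same exact p of 0.1. The share of Ccnd1 was 25.9 ± 3.43% and 29 ± 2.15% at 2w (exact permutation p = 0.3), and 23.7 ± 2.37% and 36.6 ± 2.44% at 12w (exact permutation p = 0.1). A share does not depend on the scaling between libraries, and a larger share of Ccnd3 does not mean a higher level, which was not called.

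**Figure D3:**
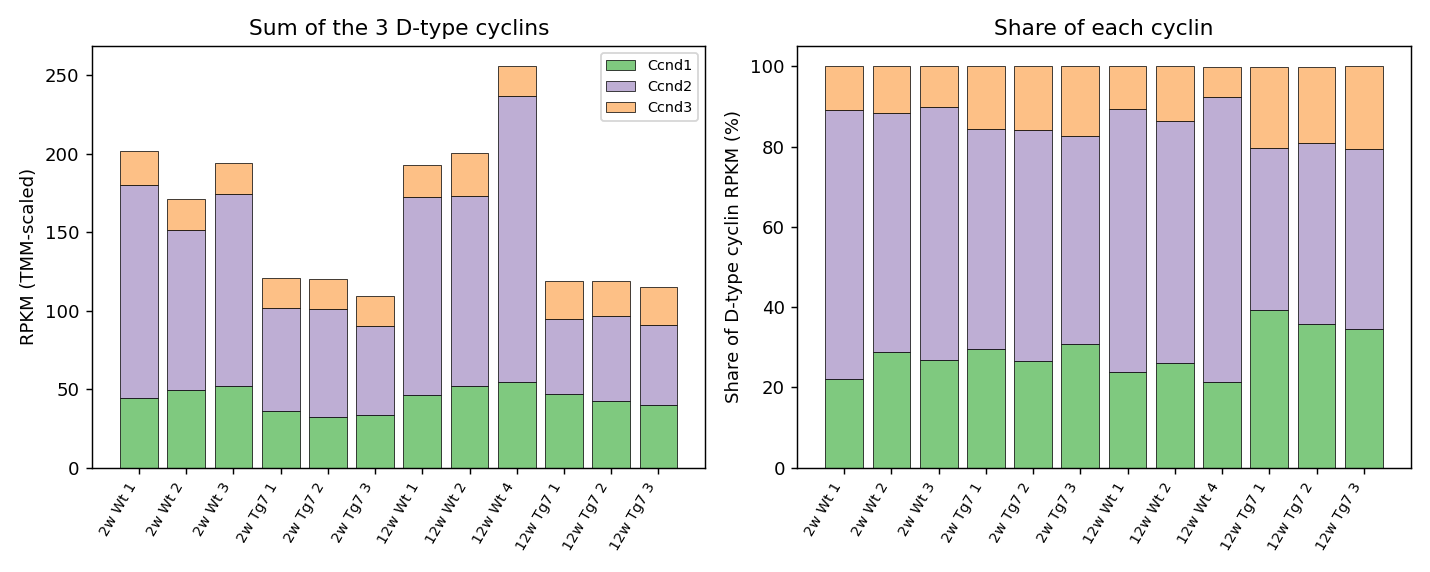
RPKM of Ccnd1, Ccnd2 and Ccnd3 stacked for each of the 12 libraries (left) and as percent of their sum (right). The sums lie at 117 RPKM on average in both Tg7 groups against 189 and 217 RPKM in the Wt groups, and the Ccnd2 part is narrowest in the 12w Tg7 libraries, at 43.5% on average.

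Cdk4 (ENSMUSG00000006728, chr10:126500590-126504976), the more abundant of the 2 G1 kinase transcripts, had 145, 138 and 134 CPM in 2w Wt and 106, 134 and 106 CPM in 2w Tg7 libraries. The 2 values of 134 CPM differ only beyond the third digit, with the Tg7 library the lower, so that the groups just failed to overlap. The log2 fold change was -0.27 (95% interval -0.56 to 0.02, adjusted p = 0.215). At 12w the Wt libraries had 132, 155 and 113 CPM and the Tg7 libraries 126, 135 and 132 CPM (-0.03, 95% interval -0.31 to 0.26, adjusted p = 0.918). Cdk4 shares 604 exon bases with Tspan31 on the other strand, which was not called at either age.

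Cdk6 (ENSMUSG00000040274, chr5:3343893-3523218), the other G1 kinase, was near the limit of detection, with 5 to 44 counts per library. Its counts were 27, 26 and 20 in 2w Wt, 44, 30 and 29 in 2w Tg7, 8, 5 and 10 in 12w Wt and 7, 11 and 24 in 12w Tg7 libraries. The groups overlapped at each age, and the intervals were wide, -0.74 to 1.4 at 2w around 0.33 and -0.98 to 1.45 at 12w around 0.24 (adjusted p = 0.723 and 0.812). A 2-fold rise of Cdk6 at 12w lies inside that interval and was not detectable at this depth. Of the RPKM of the 2 kinases, Cdk4 took 98.6 to 99.5% in the 4 groups.

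The Cip/Kip inhibitor Cdkn1a (ENSMUSG00000023067, chr17:29227924-29237667), which encodes p21, a p53 target, had 128, 72.2 and 84.5 CPM in 2w Wt and 109, 127 and 95.8 CPM in 2w Tg7 libraries. At 12w it had 65.5, 111 and 97.6 CPM in Wt and 83.3, 83.4 and 89.3 CPM in Tg7 libraries. The groups overlapped at each age, and the Wt libraries spread more widely than the Tg7 libraries. The log2 fold changes were 0.22 (95% interval -0.23 to 0.68, adjusted p = 0.547) and -0.1 (-0.56 to 0.35, adjusted p = 0.782).

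Cdkn1b (ENSMUSG00000003031, chr6:134870419-134875531), which encodes p27, had 115, 102 and 104 CPM in 2w Wt and 109, 116 and 123 CPM in 2w Tg7 libraries. The 12w values were 84.2, 83.1 and 116 CPM in Wt and 85.6, 92.8 and 82.4 CPM in Tg7 libraries. These overlapped too, with log2 fold changes of 0.12 (95% interval -0.17 to 0.41, adjusted p = 0.61) and -0.12 (-0.41 to 0.17, adjusted p = 0.573). Per length, Cdkn1a took 63.8 to 66.8% of the sum of Cdkn1a and Cdkn1b in the 4 groups. Another Cip/Kip gene, Cdkn1c, is not a member and is not in this sum (group means of 1.09 to 2.68 RPKM).

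Among the INK4 genes described here (Cdkn2a, Cdkn2b and Cdkn2c), Cdkn2b (ENSMUSG00000073802, chr4:88952198-88956941), which encodes p15, took the largest part of their summed RPKM, with group means of 56.9 to 65.1%. Its level was 10.9, 7.88 and 8.62 CPM in 2w Wt, 7.74, 9.22 and 9.09 CPM in 2w Tg7, 4.92, 7.7 and 10.3 CPM in 12w Wt and 6.54, 8.52 and 9.15 CPM in 12w Tg7 libraries. All 4 groups overlapped, and the Tg7 effects of -0.08 (95% interval -0.61 to 0.46) and 0.06 (-0.49 to 0.61) were not called (adjusted p = 0.882 and 0.892). Another INK4 gene, Cdkn2d, is not a member and is not in the sum above. Its means were 1.87 RPKM in 2w Wt, 2.59 RPKM in 2w Tg7, 1.32 RPKM in 12w Wt and 2.17 RPKM in 12w Tg7 islets.

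Cdkn2c (ENSMUSG00000028551, chr4:109333481-109339794), which encodes p18, had 9.61, 12.7 and 9.95 CPM in 2w Wt and 13.6, 9.03 and 13.1 CPM in 2w Tg7 libraries. At 12w it had 4.92, 9.84 and 8.8 CPM in Wt and 7.56, 7.91 and 5.72 CPM in Tg7 libraries. Tg7 and Wt libraries overlapped at each age, and the log2 fold changes were 0.15 (95% interval -0.4 to 0.7, adjusted p = 0.756) and -0.17 (-0.74 to 0.4, adjusted p = 0.702).

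Cdkn2a (ENSMUSG00000044303, chr4:88920377-88940557), whose alternative transcripts encode p16 and p19Arf, did not pass the filter on low counts, and a count per gene cannot separate the 2 products. It had 4, 0 and 7 counts in 2w Wt, 3, 10 and 5 in 2w Tg7, 1, 2 and 3 in 12w Wt and 15, 4 and 8 counts in 12w Tg7 libraries. At 12w each Tg7 library had more counts than each Wt library, 27 in all against 6, where 20.7% of the tested genes were higher without overlap, while the 2w groups overlapped. Fitted without the filter on 24010 genes, the 12w log2 fold change was 1.58 (SE 1.13, adjusted p = 0.443) and the 2w value 0.69 (SE 1.08, adjusted p = 0.787), so that no difference was shown at this depth.

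With age, from 2w to 12w, none of the 9 tested genes was called by edgeR in Wt or in Tg7 islets, where 15.8% and 13% of all genes were called. These age comparisons use the same libraries as the comparisons of genotype. In Wt islets Ccnd2 had a log2 fold change of 0.25 (95% interval -0.1 to 0.61, adjusted p = 0.318) and Cdk6, the only gene without overlap between the ages there, -1.17 (-2.36 to 0.02, adjusted p = 0.167), where 15.6% of all genes were lower without overlap. The other 7 lay between -0.44 (Cdkn2c) and 0.13 (Ccnd3), and 0 of 9 genes had an unadjusted p below 0.05, against 30.9% of all genes.

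In Tg7 islets the values nearest to the threshold were -0.42 for Cdkn1b (95% interval -0.71 to -0.13, adjusted p = 0.0573), 0.35 for Ccnd1 (0.1 to 0.59, adjusted p = 0.063) and -0.76 for Cdkn2c (-1.31 to -0.2, adjusted p = 0.0703). In all, 5 of the 9 had an unadjusted p below 0.05, against 27.3% of all genes. Without overlap between the ages, 5 of the 9 were lower at 12w in Tg7 islets (Cdkn2c, Cdkn1a, Cdkn1b, Ccnd2 and Cdk6), where 19.2% of all genes were, and 2 were higher (Ccnd1 and Ccnd3), where 21.5% were. DESeq2 called the 3 genes nearest to the threshold (adjusted p = 0.0294, 0.0281 and 0.0368) and 16.8% of all genes. The 2 Tg7 groups fitted alone by edgeR gave 6 calls, with Cdkn1a (-0.38), Ccnd2 (-0.33) and Ccnd3 (0.29) besides these 3, and 22.2% of all genes. With library size alone, which moved the median of all genes to -0.35 in Wt and -0.13 in Tg7, Cdkn1b, Cdk4 and Cdk6 were called lower in Wt islets, where that scaling called 25.8% of all genes.

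The genes around this core were counted on 4 lists. The list of late G1 kinase, pocket protein and E2F genes, which also holds the inhibitors Cdkn1c and Cdkn2d, had 22 members, all tested. Its median log2 fold change was 0.11 at 2w and 0.06 at 12w, against 0.03 and -0.01 over all genes. At 2w 1 of the 22 was downregulated, Tfdp1, the dimerisation partner of E2F proteins (-0.74, adjusted p = 0.00113), where 10.6% of all genes were called. At 12w 2 were upregulated and 3 downregulated, 5 of 22 where 23.6% of all genes were called. Those upregulated were E2f7, a repressive E2F (2.94 ± 0.845 CPM in Wt, 9.18 ± 1.34 CPM in Tg7, log2 fold change 1.63, adjusted p = 0.00196), and Cdk2, the kinase partner of cyclin E (2.81 ± 0.675 CPM in Wt, 7 ± 1.41 CPM in Tg7, 1.29, adjusted p = 0.00183). Those downregulated were E2f4 (-0.53), Tfdp1 (-0.49) and Cdk7 (-0.49), a subunit of the CDK-activating kinase. Under scaling by library size alone none of these 3 was called at 12w (-0.07, -0.05 and -0.05). The call of Cdk7 was also lost with upper-quartile factors (adjusted p = 0.0579), with the 2 groups alone (0.0589) and without any one of the 12w Tg7 libraries (0.064 to 0.106). It was lost as well with the replicate block (0.12) and without replicate 4 of the 12w Wt group (0.0925), which both in effect take that library out.

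Of 20 regulators upstream of the G1 genes, 1 was upregulated at 2w, where 10.6% of all genes were called. This was Myc, a transcription factor known to act on Ccnd2 and Cdk4 (11.2 ± 0.935 CPM in Wt, 20.1 ± 1.48 CPM in Tg7, log2 fold change 0.85, adjusted p = 0.0111, and 0.0695 without replicate 3 of the 2w Wt group). At 12w 4 were upregulated and 2 downregulated, 6 of 20 where 23.6% of all genes were called, with a median of -0.11. Mycn had the largest value (3.08, adjusted p = 0.000851, from 21 counts over the 3 Wt libraries to 259 over the 3 Tg7 libraries), followed by Trp53 (0.52), Dmtf1 (0.52), an activator of p19Arf transcription, and Fbxw7 (0.37), a ubiquitin ligase subunit that targets cyclin E. Gsk3b, a kinase that marks cyclin D1 for turnover, and Foxo1, an activator of Cdkn1b, were downregulated (-0.6 and -0.47), though not under scaling by library size alone (-0.18, adjusted p = 0.542, for Gsk3b, and an adjusted p of 0.987 for Foxo1). With the 2 groups fitted alone, neither these 2 nor Dmtf1 and Fbxw7 were called (adjusted p = 0.0563, 0.093, 0.105 and 0.126), which left 2 calls on this list, and the same 4 genes lost their call without any one of the 12w Tg7 libraries. Gsk3b was not called with the replicate block either (adjusted p = 0.0618), Foxo1 with upper-quartile factors (0.0985) and Fbxw7 without a filter (0.0766). Of the 12 fits that leave out 1 library, Foxo1 was called in 4, Dmtf1 in 7, Fbxw7 in 8 and Gsk3b in 9; besides the 12w Tg7 libraries, the call of Foxo1 was lost without replicate 1 of the 12w Wt group (adjusted p = 0.123), any 2w Wt library or replicate 2 of the 2w Tg7 group (0.0537 to 0.0563), that of Dmtf1 without replicate 1 of the 12w Wt group (0.115) or replicate 2 of the 2w Wt group (0.0542), and that of Fbxw7 without replicate 2 of the 12w Wt group (0.0756).

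The 18 p53 target genes other than Cdkn1a had a median of 0.22 at 2w. At that age 1 of 18 was called, Aen (-0.55, adjusted p = 0.00396), against 10.6% of all genes. At 12w the median was 0.23, and 6 were upregulated and 1 downregulated, 7 of 18 against 23.6% of all genes. The largest at 12w were Phlda3 (6.14 ± 1.83 CPM in Wt, 25.1 ± 0.854 CPM in Tg7, log2 fold change 2.01, adjusted p = 0.000279), Fas (1.72), Eda2r (1.46) and Tnfrsf10b (1.21), the last 3 encoding receptors of the TNF receptor family, and Zmat3 was lower (-0.61, and -0.16 with an adjusted p of 0.415 under library size alone). Aen was not called at 2w under that scaling (-0.38, adjusted p = 0.0939), Fas not without replicate 3 of the 12w Tg7 group (1.49, adjusted p = 0.0551), and Eda2r neither without it (1.31, adjusted p = 0.067) nor without replicate 1 of the 12w Wt group (1.34, adjusted p = 0.0536). Fas and Eda2r were low at 12w, with 40 and 66 counts over the 3 Wt libraries and 194 and 267 over the 3 Tg7 libraries. Cdkn1a, the p53 target among the 10 genes, had -0.1 in the same comparison.

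Of 20 genes of the S, G2 and M phases, 18 had a positive log2 fold change at 2w and 17 at 12w, with medians of 0.72 and 0.51. Of all 15961 tested genes, 8373 were positive at 2w and 7802 at 12w, with medians of 0.03 and -0.01. The test called 1 of the 20 at each age, where 10.6% (2w) and 23.6% (12w) of all genes were called. This was Mcm7, a subunit of the replicative helicase (0.77, adjusted p = 0.00264 at 2w and 0.65, adjusted p = 0.00412 at 12w). The summed level of the 20 genes was 220 to 304 CPM (Wt) and 232 to 480 CPM (Tg7) at 2w. At 12w it was 143 to 188 CPM (Wt) and 185 to 194 CPM (Tg7), and the groups overlapped at each age. Leaving out replicate 2 of the 2w Tg7 group, 6 of the 20 were called higher at 2w, where 8.21% of all genes were called in either direction. Leaving out replicate 4 of the 12w Wt group, 4 of the 20 were called higher at 12w, where 23.8% of all genes were called in either direction. From 2w to 12w, 13 of the 20 were called lower in Wt and 12 in Tg7 islets, where 7.91% and 6.01% of all genes were. The marker lists given above differed between the same groups, and their part in these counts was not tested.

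None of the 79 genes on the 4 lists was called for a difference of the Tg7 effect between ages by edgeR, and 13 had an unadjusted p below 0.05, against 14.5% of all genes. DESeq2 called 2, Mycn (1.88, adjusted p = 0.0284) and Aen (0.51, adjusted p = 0.0322), and 3.51% of all genes. Several list genes share exon bases with a gene on the other strand. Among the called genes named above these were Mcm7 (with Ap4m1 and Cops6), Cdk7 (Ccdc125), Dmtf1 (4930420K17Rik), Foxo1 (RP24-337A16.1) and Fbxw7 (Dear1). Mcm7 also hosts Mir25 and Mir93 on its own strand.

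**Figure D4:**
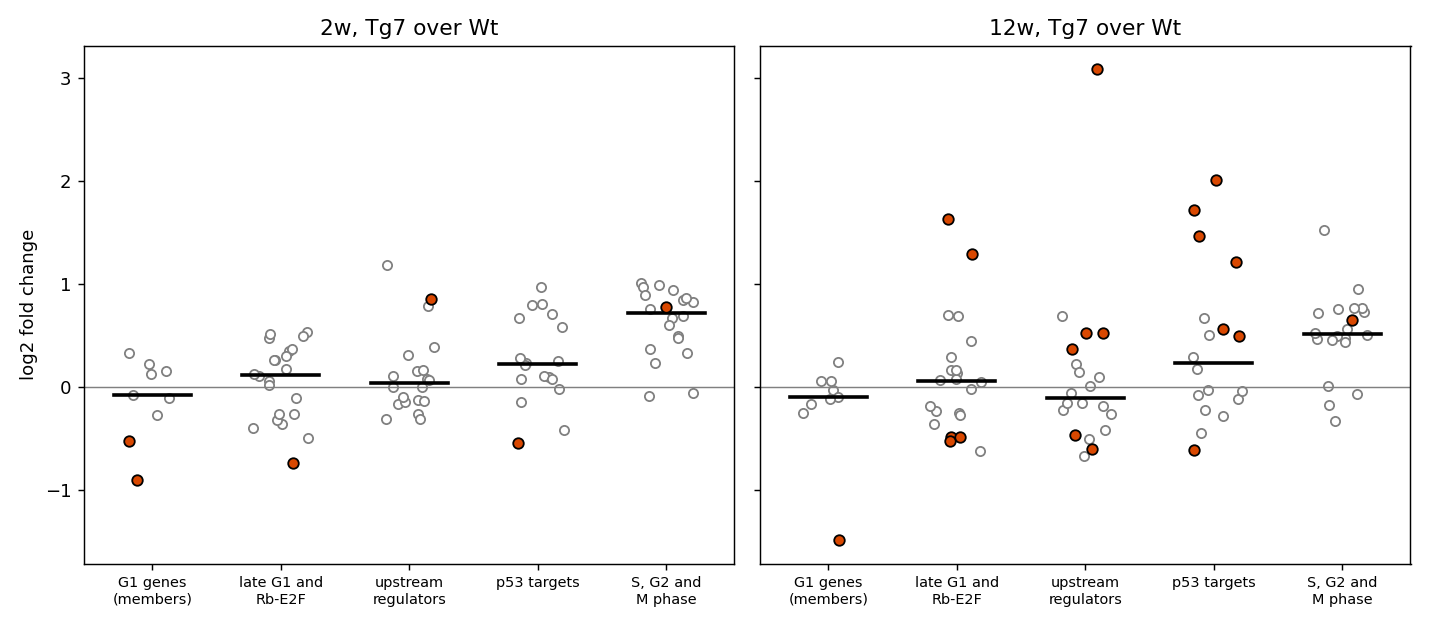
Log2 fold change of Tg7 over Wt islets at 2w (left) and 12w (right) for the tested G1 genes and the 4 lists, 1 point per gene, filled where the adjusted p was below 0.05, with a black line at the median of each list. The S, G2 and M phase genes lie highest as a list (medians 0.72 and 0.51) with 1 filled point at each age, and Ccnd2 is the lowest filled point of the plot at 12w (-1.49).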

How the data were processed

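The authors trimmed paired-end reads with Trimmomatic, aligned them to the mouse NCBIM37 (mm9) assembly with TopHat2 2.0.11 and counted them per Ensembl gene with featureCounts. The deposited values are raw counts for 37991 genes in 12 libraries (11610697 to 17515758 counts each). Neither the featureCounts version nor whether it counted by strand is stated.

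From these counts, filterByExpr (minimum count 10, minimum total 15) selected the genes to test. The 15961 genes left were scaled with TMM and fitted as 4 group means in edgeR 4.0.16 (glmQLFit, glmQLFTest, R 4.3.3), with Benjamini-Hochberg adjustment over all of them and a call at an adjusted p below 0.05. Each adjusted p is from this test unless DESeq2 (1.42.0) is named. Tested were Tg7 minus Wt at each age, 12w minus 2w in each genotype, and the difference of the Tg7 effects. SE is the log2 fold change over the square root of F. RPKM used the summed exon length of each gene in GENCODE M1, which also gave the positions and 3′ UTRs. The edgeR and DESeq2 calls of Tg7 against Wt at 12w were tested on simulated counts with large planted changes. Smaller changes, the other comparisons and the permutation test were not tested in this way. Same-numbered libraries were not treated as pairs. Their residuals were not positively correlated (-0.0214, -0.167 and -0.0343 at 2w, -0.0894 and -0.0112 at 12w). With so few libraries this cannot show that they were not collected in pairs.

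All 10 members are named. Of the 4 pathway lists, the called genes with the largest log2 fold change are named, up to 4 per direction, and for Ccnd1 and Ccnd2 the 2 genes nearest in pattern over 12 libraries. The members and lists were chosen with earlier results of these data known. Alternatives were DESeq2, upper-quartile factors, scaling by library size alone, edgeR on the compared groups alone, a stricter filter (50 counts in 3 libraries) or none, a replicate block, and each library left out in turn. Only the 12w Wt group has a replicate 4, so that the block in effect takes that library out of the group comparisons. The block and the fit without that library are therefore not separate checks. Figures were drawn with matplotlib.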

Additional observations from a re-analysis of the deposited data

How the results depend on the processing

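Ccnd2 was called lower at 2w and at 12w under all 7 alternatives (-0.93 to -0.75 and -1.51 to -1.06) and with each of the 12 libraries left out (-1.02 to -0.82 and -1.60 to -1.27); the replicate block gave -0.91 and -1.25. Depth limits Cdk6 and Cdkn2a, at 5 to 44 and 0 to 15 counts per library. No cause of a shift below was tested.

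Members called in the main fit were 2 at 2w, 1 at 12w, 0 with age in Wt and 0 with age in Tg7. Under library size alone they were 1, 3 and 3 at 2w, at 12w and with age in Wt, where 12.4%, 34.8% and 25.8% of all genes were called. With age in Tg7, DESeq2 called 3 (16.8% of all genes) and edgeR on the 2 groups alone 6 (22.2%). In that comparison upper-quartile factors gave 1 (13%), the stricter filter 1 (15.5%) and the replicate block 2 (19.3%). The block gave 1 with age in Wt (23.9%). With a library left out, 1 to 2 members were called at 2w (4.59 to 18.7% of all genes). With age, 0 to 1 were called in Wt (8.11 to 24.4%) and 0 to 3 in Tg7 (6.79 to 20.2%).

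List calls at 2w moved from 1 to 2 (late G1 and Rb-E2F genes) with DESeq2, the 2 groups alone and the replicate block, with 1 to 3 over libraries left out. Upstream regulators moved from 1 to 2 with DESeq2, library size alone and the replicate block and to 3 with the 2 groups alone (0 to 3 over libraries left out), and at 12w from 6 to 2 with the 2 groups alone. The p53 targets at 2w moved from 1 to 0 with library size alone, 2 with DESeq2, upper-quartile factors, no filter or the stricter filter, and 3 with the 2 groups alone or the replicate block (1 to 4 over libraries left out). S, G2 and M phase genes moved from 1 to 2 without a filter at 2w (1 to 6 over libraries left out). At 12w they moved to 2 with DESeq2 or either filter, 3 with upper-quartile factors, 4 with the replicate block and 6 with library size alone. Of all genes, the main fit called 10.6% at 2w and 23.6% at 12w. At 2w DESeq2 called 14.6%, the 2 groups alone 15.4% and the replicate block 16.5%. Library size alone called 12.4%, upper-quartile factors 11.4%, no filter 8.55% and the stricter filter 13.3%. At 12w these shares were, in the same order, 25%, 17.6%, 22.4%, 34.8%, 23.4%, 14.9% and 27.7%.

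Several log2 fold changes that were not called in the main fit changed sign. Under library size alone these were, at 2w, Cdkn2b (0.10) and Ccnd3 (0.06), at 12w Cdkn2c (0.25), Cdkn1a (0.32), Cdkn1b (0.31), Ccnd1 (0.19) and Cdk4 (0.43), with age in Wt Ccnd1 (-0.33), Ccnd2 (-0.12) and Ccnd3 (-0.26), and between the effects Cdkn1b (0.02) and Cdk6 (0.19). Cdk4 at 12w, which was called higher under library size alone (adjusted p = 0.0349), was 0.06 with upper-quartile factors. The replicate block turned Cdkn1b (0.06) and Ccnd3 (-0.04) at 12w and Cdk4 (0.02) with age in Wt. Leaving out replicate 4 of the 12w Wt group, which the block in effect does too, gave 0.06, -0.04 and 0.04. Over libraries left out, values spanning 0 were Cdkn2b at 2w (-0.17 to 0.07) and at 12w (-0.18 to 0.34), Cdkn2c (-0.42 to 0.02), Cdkn1a (-0.31 to 0.06), Cdkn1b (-0.22 to 0.06), Ccnd3 (-0.04 to 0.23), Cdk4 (-0.13 to 0.10) and Cdk6 (-0.41 to 0.57) at 12w, Cdkn1a (-0.22 to 0.22), Ccnd3 (-0.04 to 0.23) and Cdk4 (-0.19 to 0.04) with age in Wt, Cdkn2b (-0.20 to 0.03) with age in Tg7, and Cdkn2b (-0.10 to 0.42) and Cdk6 (-0.74 to 0.25) between the effects.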

Other observations

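By the root mean square distance of centred log2 CPM over the 12 libraries (prior count 2), the tested genes with the pattern nearest to Ccnd2 were D5Ertd579e (0.128) and Map3k9 (0.154), where Ccnd2 itself ranged over 1.93. Those nearest to Ccnd1 were Ganab (0.0854) and Surf4 (0.0918), where Ccnd1 ranged over 0.777. The libraries share depth and composition differences, so that these distances are descriptions with no test.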
